A study of Mus musculus with 16 samples.

Results

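The genes described here are the cell-surface receptors for extracellular nucleotides and adenosine, and an enzyme that degrades those nucleotides, in dendritic cells that were grown from mouse marrow with the growth factor GM-CSF. The 10 genes were chosen by gene symbol, with the log2 expression values and treatment changes of these arrays already known, so their levels and changes are a description and no count over them is independent evidence. Of the 10, 8 were measured among 22180 genes, namely P2ry13, P2ry12, P2ry14, P2ry6, P2ry2, P2rx4, P2rx7 and Entpd1. The adenosine receptor genes Adora2a and Adora2b had no probe set with a single symbol in the annotation used and were not analysed here. A probe set is the group of short DNA probes read together as a single value. Each of the 8 had 1 such probe set.

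The design held 4 groups of 4 arrays each. The cells came from male C57/B6 mice, were cultured for 10 days with 20 ng/ml GM-CSF and were then treated for 24 h. They received IMQ with PA, IMQ alone, PA alone, or neither (mock). PA, read here as palmitic acid, a saturated fatty acid, was given at 0.5 mM, carried by bovine serum albumin (PA to albumin, 6 to 1 by moles), while IMQ, read as imiquimod, which activates the RNA sensor TLR7, is given as 3 uM in one text and as 3 ug/ml in another. Whether mock cells received albumin is not stated, and neither are the animals or cultures behind the replicates, which the labels call biological. The p-values therefore measure only the spread between these arrays, which may be technical.

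Cells release ATP and other nucleotides when they are stressed or dying, and neighbouring cells sense them through purinergic receptors. The P2Y receptors couple to G proteins, and the P2X receptors are cation channels that ATP opens. Ectoenzymes such as CD39, the product of Entpd1, break ATP and ADP down to AMP, which CD73, the product of Nt5e, turns into adenosine. Dendritic cells use these signals in migration, cytokine release and inflammasome activation.

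The genes P2ry14, P2ry13 and P2ry12 lie in that order along chromosome 3 in RefSeq (assembly GRCm38.p6), and all 3 lie inside the interval of Med12l. They had 3 different patterns over the treatments, and for that reason the 250 bases before their starts are shown together with those of Entpd1, the gene of the 8 with the largest change under IMQ alone. All are RefSeq sequences of GRCm38.p6 in the direction of the gene. P2ry13 is chr3:59210883-59211132 on the minus strand, P2ry12 is chr3:59262986-59263235 on the minus strand, P2ry14 is chr3:59153493-59153742 on the minus strand, and Entpd1 is chr19:40612116-40612365 on the plus strand. Capitals mark letters that matched a motif on either strand.
P2ry13: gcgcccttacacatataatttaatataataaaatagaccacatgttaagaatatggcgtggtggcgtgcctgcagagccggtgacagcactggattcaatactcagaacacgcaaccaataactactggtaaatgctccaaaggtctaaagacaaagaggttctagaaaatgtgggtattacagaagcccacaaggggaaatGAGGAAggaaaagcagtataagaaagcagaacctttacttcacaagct
P2ry12: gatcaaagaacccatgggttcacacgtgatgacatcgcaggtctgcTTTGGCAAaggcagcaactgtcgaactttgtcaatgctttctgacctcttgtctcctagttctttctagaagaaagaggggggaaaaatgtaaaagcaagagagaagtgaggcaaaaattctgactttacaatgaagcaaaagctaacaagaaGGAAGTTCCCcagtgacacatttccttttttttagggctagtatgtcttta
P2ry14: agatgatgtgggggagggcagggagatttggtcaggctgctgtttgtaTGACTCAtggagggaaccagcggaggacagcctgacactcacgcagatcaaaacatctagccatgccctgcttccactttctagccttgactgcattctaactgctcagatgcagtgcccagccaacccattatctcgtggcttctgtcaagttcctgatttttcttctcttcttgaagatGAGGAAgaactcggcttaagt
Entpd1: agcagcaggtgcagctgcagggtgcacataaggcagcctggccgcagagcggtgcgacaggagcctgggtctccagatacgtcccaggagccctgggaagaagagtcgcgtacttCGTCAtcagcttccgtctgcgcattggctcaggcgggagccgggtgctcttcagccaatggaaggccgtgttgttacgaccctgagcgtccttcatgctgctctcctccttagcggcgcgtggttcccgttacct

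Of the 8 genes, 7 had a sequence in the promoter table, and 7 motifs were sought. The PU.1-type letters GAGGAA stood before P2ry13 and P2ry14 and in 23.1% of 27025 promoters. The NF-kB motif, of 10 letters, matched P2ry12 on the opposite strand and 17.4% of promoters, and the C/EBP-type letters TTGCNNAA matched P2ry12 and P2ry2 and 9.55%. The AP-1 letters TGANTCA were in the windows of P2ry14 and P2rx7 and in 6.85% of promoters. The first 5 letters of the cyclic AMP element, TGACG, stood on the opposite strand before Entpd1 and P2rx4 and in 17.8%, while the whole element, TGACGTCA (1.60% of promoters), and the interferon-stimulated response element (3.05%) matched 0 of the 7. Overlapping motifs were the whole cyclic AMP element and its first letters. The G and C content was 41.6% before P2ry13, 41.6% before P2ry12, 50.0% before P2ry14 and 62.4% before Entpd1, against a median of 52.0% over all promoters. A match of letters is a description and not a site, and no match says nothing about a factor.

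Levels are log2 values, so a difference of 1 is a doubling of signal. Signals of different genes are not compared as amounts, since probes differ. A gene was called dim below 4.93, the 95th percentile of the mean level of 1405 odorant and other sensory receptor genes, which myeloid cells mostly do not express. P2ry13 and P2ry12 reached that range in some groups, and the other 6 stayed above it. Changes are differences of group means from a limma fit over all 16 arrays, with the standard error after ±, and calls were made under an adjusted p of 0.05, by the Benjamini-Hochberg method over the 22180 genes. In these bulk samples, fewer cells of a type and less RNA per cell cannot be told apart.

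Correlations between arrays of the same group lay between 0.994 and 0.996 across genes. Of the defining myeloid and dendritic markers, 9 were measured and all were above the dim level in every group, with mean levels of 9.59 to 9.64 in IMQ with PA, 9.68 to 9.73 in IMQ, 9.69 to 9.78 in PA and 9.74 to 9.84 in mock arrays. The mean covers unlike changes, since with IMQ alone 3 of the 9 were higher and 5 lower, among them Itgax (CD11c) at -1.71. Of 7 macrophage markers, all above the dim level, 4 were higher and 3 lower with IMQ alone, and 3 were higher and 3 lower on adding PA to IMQ. Their mean levels were 10.15 to 10.19 in IMQ with PA, 10.08 to 10.16 in IMQ, 9.86 to 9.98 in PA and 9.90 to 10.01 in mock arrays. Lymphocyte markers were dim in 6 of 6. Lists of other cell types were dim only in part: 3 of 8 neutrophil, 5 of 7 mast cell and basophil, and 2 of 5 eosinophil markers in all groups. Among those above the dim level in mock arrays were Siglecf (mean 7.93), Kit (6.78) and S100a8 (6.40). Some arrays without IMQ carried a signal like that of IMQ: over the 75 genes with the largest IMQ rise, their median signal above the lowest array without IMQ, as a percent of the linear signal of IMQ arrays above it, ran from 0.668% to 3.16% in PA and from 0.486% to 5.24% in mock arrays, with 2 PA and 3 mock arrays over 2%. Il6, a cytokine that IMQ induces, read 4.12, 3.999, 7.43 and 8.22 in PA arrays and 7.57, 7.90, 7.71 and 4.32 in mock arrays. Calls on the 8 genes that were lost without those 5 arrays are named with their values.

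**Figure D1:**
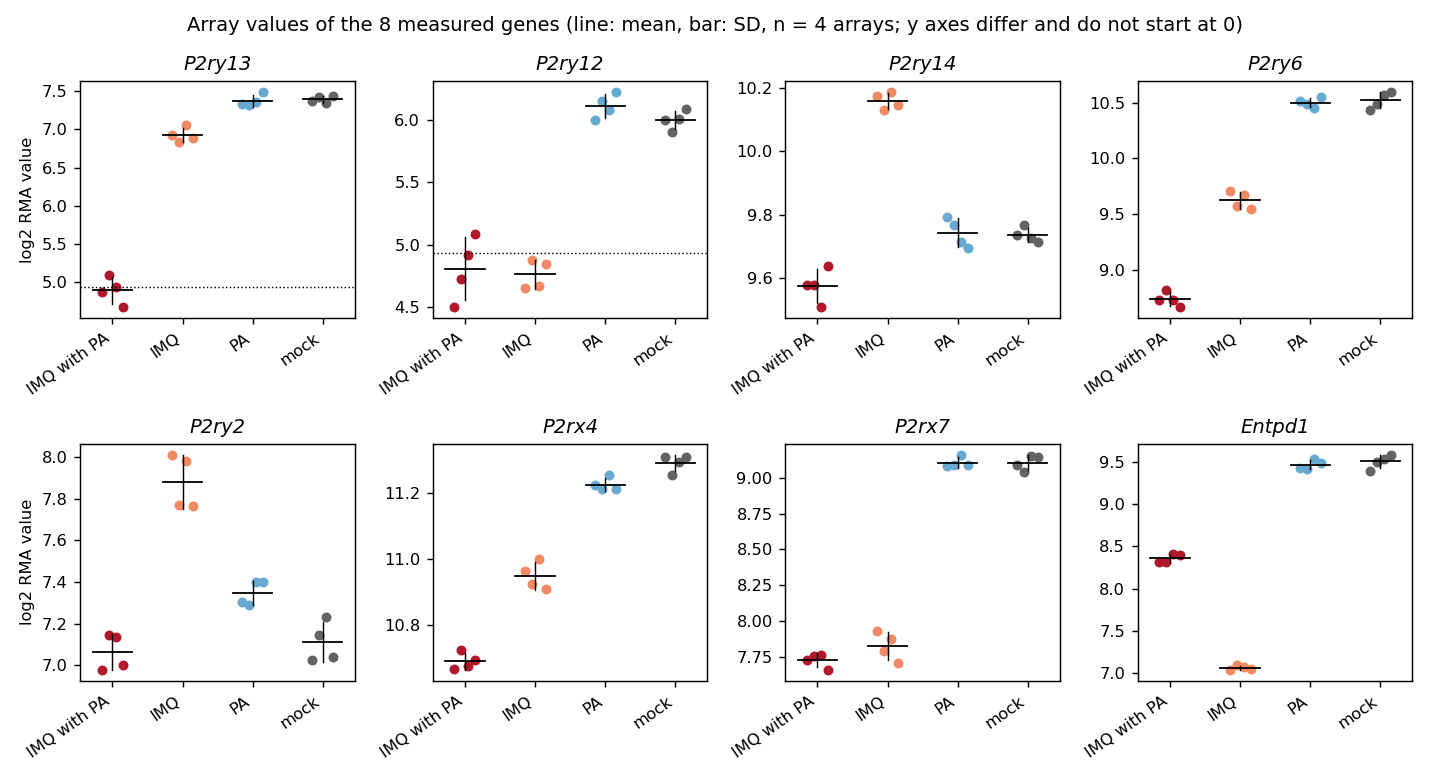
Log2 levels of the 8 measured genes in each of the 16 arrays, 1 panel per gene, with points for arrays, horizontal lines for group means and vertical bars for the SD (n = 4 per group). The dotted line marks the dim level of 4.93, and the y axes differ between panels and do not start at 0. PA and mock points overlap in every panel but those of P2ry2 and P2rx4, while P2ry13 in IMQ with PA falls to the dim level and Entpd1 in IMQ lies below every other group.

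Among receptors for ADP, P2ry13, which encodes a Gi-coupled ADP receptor, was the gene that IMQ with PA lowered most. It read 4.86, 5.10, 4.93 and 4.67 in IMQ with PA arrays and 6.93, 6.84, 7.06 and 6.88 in IMQ arrays. In PA arrays it read 7.33, 7.32, 7.36 and 7.49, and in mock arrays 7.38, 7.42, 7.34 and 7.44. The IMQ with PA arrays all lay below those of every other group, the IMQ arrays lay below PA and mock, and PA and mock overlapped. From IMQ alone, IMQ with PA differed by -2.04 ± 0.08 (adjusted p = 3.73e-11, limma), and from PA alone by -2.49 ± 0.08 (adjusted p = 4.84e-13). With 2 of its arrays dim, and dim readings set to the dim level, these are at least 3.87-fold and at least 5.29-fold lower. IMQ alone gave -0.47 ± 0.08 against mock, 1.39-fold lower (adjusted p = 0.000126), and the change with PA alone was -0.02 ± 0.08 (95% interval -0.18 to 0.15, adjusted p = 0.945). The interaction, which subtracts the PA change of cells without IMQ from that of cells with IMQ, was -2.02 ± 0.11 (adjusted p = 7.40e-09).

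P2ry12, its neighbour, encodes the ADP receptor of platelets and of microglia and also couples to Gi. It read 4.50, 4.72, 4.92 and 5.09 in IMQ with PA arrays and 4.65, 4.88, 4.67 and 4.84 in IMQ arrays, so 3 and 4 of the 4 arrays were dim. It read 6.00, 6.15, 6.08 and 6.23 in PA arrays and 6.00, 5.91, 6.01 and 6.09 in mock arrays. Every array with IMQ lay below every array without it. The change with IMQ alone was -1.24 ± 0.10 against mock (adjusted p = 5.58e-08, limma), at least 2.10-fold lower, and IMQ with PA was at least 2.21-fold below PA (adjusted p = 2.66e-08). With both IMQ groups dim, a PA change on top of IMQ and the interaction could not be read. PA and mock differed by 0.11 ± 0.10 (adjusted p = 0.668).

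Markers of the cells known for P2ry12 were read beside it. Of 6 measured platelet and megakaryocyte markers, the mean level ranged over 6.11 to 6.29 in IMQ with PA, 6.39 to 6.53 in IMQ, 6.25 to 6.38 in PA and 6.18 to 6.24 in mock arrays. With IMQ alone 3 of these were higher and 2 lower: Gp6 averaged 5.43 in IMQ with PA, 7.11 in IMQ, 4.34 in PA and 4.66 in mock arrays, while Itgb3 changed by -1.17 and Ppbp by -0.63 with IMQ alone. Of 6 microglia-type markers, 2 (Sall1 and Siglech) were dim throughout, and the mean level was 5.26 to 5.44 in IMQ with PA, 5.54 to 5.62 in IMQ, 5.87 to 5.99 in PA and 5.96 to 6.05 in mock arrays. With IMQ alone 1 of these was higher and 3 lower, with Tmem119 at 1.14 and Fcrls at -2.18. The part of either in the P2ry12 values was not tested.

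P2ry14, the receptor for UDP-glucose and other UDP-sugars, had another shape. It read 9.58, 9.58, 9.51 and 9.64 in IMQ with PA arrays and 10.17, 10.13, 10.19 and 10.15 in IMQ arrays. It read 9.79, 9.77, 9.72 and 9.69 in PA arrays and 9.74, 9.77, 9.73 and 9.72 in mock arrays. IMQ arrays lay above all the others, and IMQ with PA arrays lay below all the others. IMQ alone raised it by 0.42 ± 0.04 against mock, 1.34-fold (adjusted p = 4.51e-07, limma). IMQ with PA stood -0.58 ± 0.04 from IMQ (1.497-fold lower, adjusted p = 3.79e-08), -0.17 ± 0.04 from PA (adjusted p = 0.00434) and -0.16 ± 0.04 from mock (adjusted p = 0.00572). The difference from mock was not called without the 5 arrays of IMQ-like signal (-0.14, adjusted p = 0.224) or with that signal as a covariate (adjusted p = 0.0668). The interaction was -0.59 ± 0.06 (adjusted p = 4.13e-06), and PA alone gave 0.01 ± 0.04 (adjusted p = 0.966).

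P2ry6, a receptor for UDP that couples to Gq, fell in 2 steps. It read 8.73, 8.82, 8.73 and 8.66 in IMQ with PA arrays and 9.71, 9.57, 9.67 and 9.55 in IMQ arrays, while PA arrays read 10.51, 10.48, 10.45 and 10.55 and mock arrays 10.43, 10.49, 10.57 and 10.60. The 3 levels did not overlap, but PA and mock did. IMQ alone gave -0.90 ± 0.05 against mock, 1.86-fold lower (adjusted p = 9.55e-10, limma). Adding PA to IMQ gave a further -0.89 ± 0.05, 1.85-fold lower (adjusted p = 5.12e-09). PA alone gave -0.02 ± 0.05 (adjusted p = 0.899), and the interaction was -0.87 ± 0.08 (adjusted p = 1.01e-06).

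P2ry2, a receptor for ATP and UTP, rose with IMQ alone. It read 6.98, 7.14, 7.14 and 7.002 in IMQ with PA arrays and 8.01, 7.77, 7.98 and 7.76 in IMQ arrays. It read 7.30, 7.29, 7.40 and 7.40 in PA arrays and 7.03, 7.15, 7.23 and 7.04 in mock arrays. IMQ arrays lay above all others, and IMQ with PA overlapped mock. IMQ alone raised it by 0.77 ± 0.07 against mock, 1.70-fold (adjusted p = 1.70e-07, limma), and IMQ with PA was -0.82 ± 0.07 from IMQ, 1.76-fold lower (adjusted p = 2.92e-07). IMQ with PA was -0.28 ± 0.07 from PA (adjusted p = 0.00401), a call that was lost without the 5 arrays of IMQ-like signal (-0.23, adjusted p = 0.0833). Against mock it was -0.05 ± 0.07 (95% interval -0.20 to 0.10, adjusted p = 0.674). PA arrays lay above mock arrays without overlap, by 0.24 ± 0.07, which did not pass over all genes (adjusted p = 0.125). The interaction was -1.05 ± 0.10 (adjusted p = 2.24e-06).

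The channel P2rx4, which is found at the cell surface and in lysosomes, moved least among the genes that fell with IMQ. It read 10.67, 10.73, 10.68 and 10.69 in IMQ with PA arrays and 10.97, 10.92, 11.001 and 10.91 in IMQ arrays, against 11.22, 11.21, 11.26 and 11.21 in PA arrays and 11.31, 11.26, 11.29 and 11.31 in mock arrays. No pair of groups overlapped. IMQ alone gave -0.34 ± 0.04 against mock (1.27-fold lower, adjusted p = 1.90e-06, limma) and IMQ with PA gave -0.26 ± 0.04 against IMQ (1.197-fold lower, adjusted p = 0.000100). PA and mock differed by -0.07 ± 0.04, which was not called (adjusted p = 0.449). The interaction of -0.19 ± 0.05 was called (adjusted p = 0.0259) but was lost when mock replicate 2, PA replicate 3, or IMQ with PA replicate 1 or 3 was left out (adjusted p from 0.0506 to 0.0556), with the array medians set equal (0.0552), with the IMQ-like signal as covariate (0.0619) and without the 5 arrays that carried it (-0.17, 0.367).

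P2rx7, the channel that high ATP opens and that triggers NLRP3 inflammasome assembly, fell with IMQ whether or not PA was present. It read 7.73, 7.76, 7.77 and 7.66 in IMQ with PA arrays and 7.93, 7.80, 7.88 and 7.71 in IMQ arrays. It read 9.08, 9.09, 9.16 and 9.09 in PA arrays and 9.09, 9.04, 9.15 and 9.14 in mock arrays. Arrays with IMQ and arrays without it did not overlap, while IMQ with PA overlapped IMQ, and PA overlapped mock. IMQ alone gave -1.28 ± 0.05 against mock, 2.42-fold lower (adjusted p = 1.15e-11, limma), and IMQ with PA gave -1.37 ± 0.05 against PA, 2.59-fold lower (adjusted p = 4.32e-12). Adding PA to IMQ gave -0.10 ± 0.05 (95% interval -0.21 to 0.01, adjusted p = 0.216), PA alone -0.00 ± 0.05 (adjusted p = 0.992), and the interaction was -0.10 ± 0.07 (95% interval -0.26 to 0.06, adjusted p = 0.468). Repeated quantile normalization put the PA change with IMQ at -0.15 and called it (adjusted p = 0.0249).

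Entpd1 (CD39), the enzyme that removes ATP and ADP from the cell surface, had the largest fall with IMQ alone among the 8 and was higher with both agents than with IMQ alone. It read 8.31, 8.32, 8.41 and 8.40 in IMQ with PA arrays and 7.04, 7.10, 7.07 and 7.05 in IMQ arrays. It read 9.43, 9.41, 9.53 and 9.49 in PA arrays and 9.39, 9.50, 9.54 and 9.58 in mock arrays. IMQ with PA arrays lay between those of IMQ and those without IMQ, with no overlap, and PA overlapped mock. IMQ alone gave -2.43 ± 0.05 against mock, 5.41-fold lower (95% interval 5.03 to 5.81, adjusted p = 1.45e-14, limma). IMQ with PA was 1.29 ± 0.05 above IMQ, 2.45-fold higher (95% interval 2.28 to 2.63, adjusted p = 3.73e-11), and -1.10 ± 0.05 from PA, 2.15-fold lower (adjusted p = 2.64e-11). The interaction was 1.33 ± 0.07 (adjusted p = 4.93e-09), and PA alone gave -0.04 ± 0.05 (95% interval -0.14 to 0.07, adjusted p = 0.780). Among the macrophage markers, Mrc1 gave -3.62 with IMQ alone and 1.05 on adding PA, and Mertk -2.08 and 0.50. Marco gave 3.04 and -0.53, Adgre1 1.55 and -0.40, and Fcgr1 0.84 and -0.89. Cd14 rose in both, by 1.84 and 0.48, and Cd68 gave -0.53 and 0.09, the 0.09 not called. The part of these markers in the Entpd1 values was not tested.

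**Figure D2:**
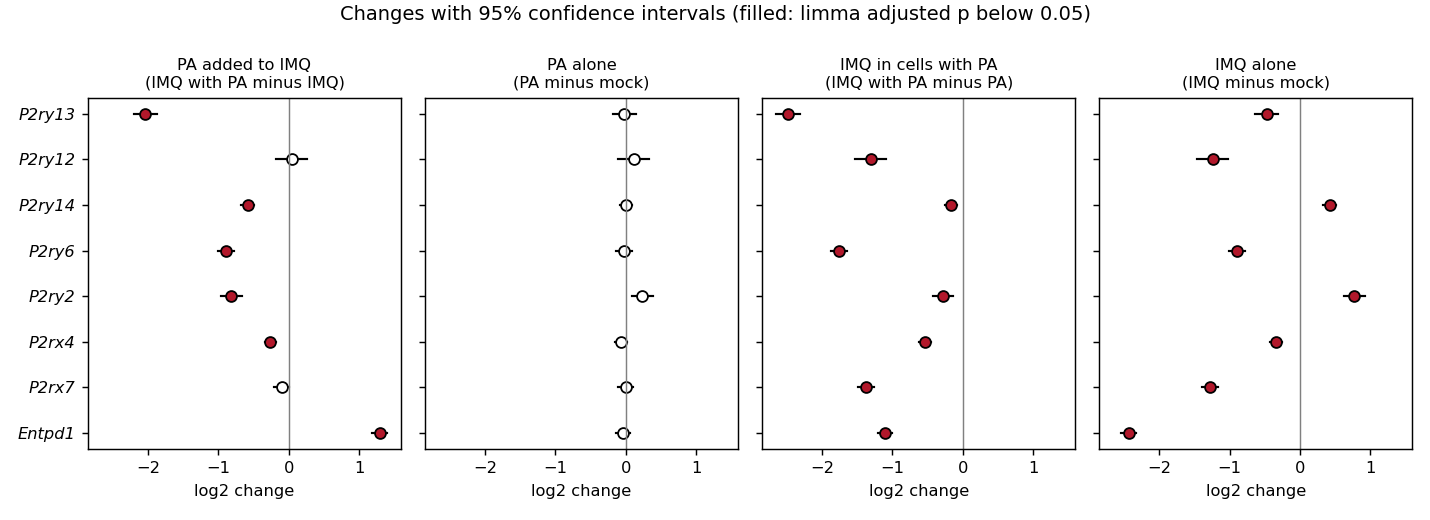
Log2 changes of the 8 genes in 4 comparisons, 1 panel each, as points with bars for the 95% interval of the limma fit. Filled points passed an adjusted p of 0.05 over 22180 genes. PA against mock was called for 0 of the 8, and its interval leaves out 0 for P2ry2 alone. Adding PA to IMQ moved P2ry13 and Entpd1 in opposite directions.

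Counted over the 8, the comparisons can be set beside all genes tested, with the reservation about how the genes were chosen. With PA alone 0 were called higher and 0 lower, against 1.05% and 0.442% of all genes, and the median change was -0.01. At an unadjusted p under 0.05 in the limma fit, 1 passed (P2ry2), and trended and robust moderation called it (adjusted p = 0.0417). With IMQ alone 2 were higher and 6 lower, against 17.0% and 17.9%, with a median of -0.68 beside 0.01 for all genes. Against IMQ, IMQ with PA had 1 higher and 5 lower, against 11.6% and 9.44%, with a median of -0.42 beside -0.02. Against PA it had 0 higher and 8 lower (16.8% and 18.5%), with a median of -1.21, and against mock 0 higher and 7 lower (18.4% and 18.1%), with a median of -1.17. The interaction was called below 0 for 5 and above 0 for 1 (Entpd1), against 7.01% and 6.58%. These comparisons share their control arrays, so they are not separate evidence. The shares are of all 22180 genes, of which 8630 were dim. Each of the 8, in contrast, was above the dim level in some group. With dim genes left out, 7694 genes were called for IMQ against mock and 3507 for the interaction. Among genes above the dim level, the shares called are therefore higher than those of all genes given here and below.

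Across the group means, P2ry13, P2ry6, P2rx4 and P2rx7 ran from low to high in the order IMQ with PA, IMQ, PA and mock. PA and mock were not called different for any of the 8, and neither were IMQ with PA and IMQ for P2rx7, or for P2ry12, which was dim in both. P2ry14 and P2ry2 ran from low to high in the order IMQ with PA, mock, PA and IMQ, and Entpd1 in the order IMQ, IMQ with PA, PA and mock. With each gene centred on its own mean, P2ry2 and P2ry14 were the nearest pair over the 16 arrays (root mean square difference 0.16), followed by P2rx7 and P2ry12 (0.17), and Entpd1 and P2ry2 were the farthest (1.26). The values were centred but not scaled, so these distances mix the shape of the changes with their size. All arrays share 1 experiment, so the distances are a description only.

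**Figure D3:**
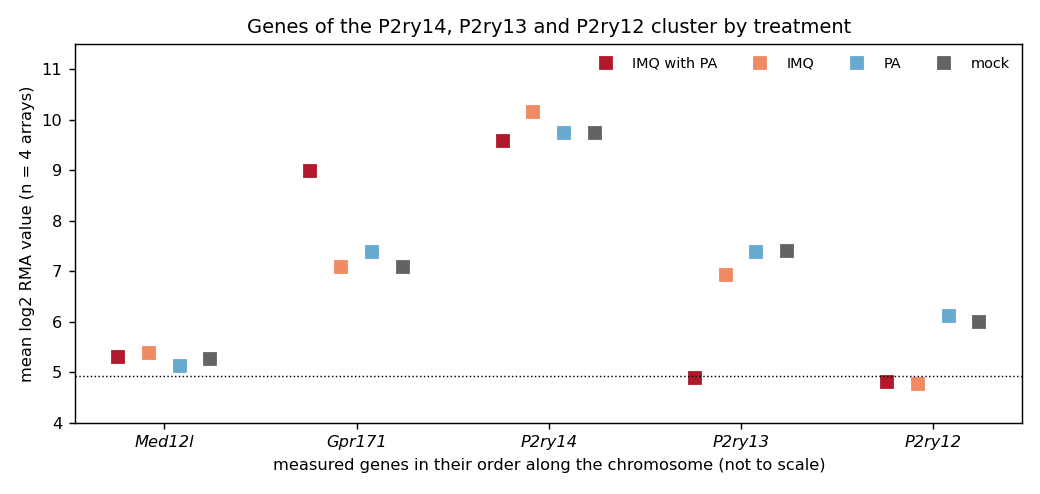
Mean log2 level per group (n = 4 arrays) of the measured genes of the chromosome 3 cluster, in chromosome order and not to scale. The dotted line marks the dim level. P2ry14, P2ry13 and P2ry12 take 3 shapes, Gpr171 is highest in IMQ with PA, and Med12l stays between 5.13 and 5.39 in all group means.

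The genes around the cluster were read on the same scale. Med12l, whose interval holds the cluster, averaged 5.29 in IMQ with PA, 5.39 in IMQ, 5.13 in PA and 5.26 in mock arrays and was called in none of the comparisons. Whether it shares signal with the probe sets of the genes inside it was not tested. Gpr171, a relative in the same interval, averaged 8.99 in IMQ with PA, 7.09 in IMQ, 7.38 in PA and 7.08 in mock arrays, and adding PA to IMQ raised it by 1.91 ± 0.06 (adjusted p = 7.08e-12, limma) where P2ry13 fell. With PA alone it rose by 0.30 (adjusted p = 0.0215). Gpr171 had a second probe set that read 5.33 in IMQ with PA, 4.71 in IMQ, 4.93 in PA and 4.86 in mock arrays. On chromosome 5, P2rx7 and P2rx4 are adjacent, and the next gene after P2rx4, Camkk2, gave -0.45 with IMQ alone (adjusted p = 1.71e-05) and -0.23 on adding PA (adjusted p = 0.0126). Anapc5 beyond it gave -0.08 with IMQ alone, not called, and -0.30 on adding PA (adjusted p = 8.33e-05). On the P2rx7 side Ift81 was dim in all groups. Atp2a2 beyond Ift81 rose by 0.19 with IMQ alone (adjusted p = 0.0015) and by 0.35 on adding PA (adjusted p = 1.51e-05). On chromosome 7, P2ry6 and P2ry2 are adjacent and moved opposite ways with IMQ alone, though both were lower in IMQ with PA than in PA (-1.76 and -0.28). Fchsd2 beyond P2ry2 rose by 0.99 with IMQ alone and gave -0.04 on adding PA, not called. Atg16l2 after it gave -0.12 with IMQ alone, not called, and 0.25 on adding PA (adjusted p = 0.0104). On the P2ry6 side Arhgef17 was called in neither. Relt beyond Arhgef17 gave 0.31 with IMQ alone (adjusted p = 0.00159) and -0.64 on adding PA (adjusted p = 3.18e-06).

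The rest of the purinergic system was read from a list of 33 other genes, of which 29 were measured and 9 were dim in all groups. With PA alone 0 were called by limma, and 6 passed at an unadjusted p under 0.05. With IMQ alone 5 of 29 were higher and 8 lower, beside 17.0% and 17.9% of all genes, with a median of 0.02. Adding PA to IMQ gave 8 higher and 5 lower, beside 11.6% and 9.44%, with a median of -0.03. In the interaction 4 were above 0 and 4 below, beside 6.58% and 7.01%.

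Among receptors, P2ry1, a Gq-coupled ADP receptor, fell to 5.07 in IMQ, against 7.15 in mock arrays, a change of -2.08 ± 0.13 (adjusted p = 1.24e-09, limma), and was 0.39 ± 0.13 higher with both agents than with IMQ (adjusted p = 0.0372). P2ry10, which answers lysophospholipids rather than nucleotides, rose by 0.75 ± 0.10 with IMQ (adjusted p = 9.84e-06) and by a further 0.37 ± 0.10 with PA (adjusted p = 0.0126). P2rx5, an ATP-gated channel, fell by 0.46 ± 0.08 with IMQ (adjusted p = 0.000169). Of the 4 adenosine receptor genes, Adora3 alone was measured and was dim in every group.

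Among enzymes, Nt5e (CD73), which makes adenosine from AMP, did not fall with IMQ alone as Entpd1 did, but like Entpd1 was higher on adding PA. It averaged 7.42 in IMQ with PA, 6.99 in IMQ, 7.13 in PA and 6.99 in mock arrays. Adding PA to IMQ raised it by 0.43 ± 0.07 (adjusted p = 0.000157, limma), with 0.00 ± 0.07 for IMQ alone. Entpd5, an enzyme of the endoplasmic reticulum, gave -0.21 ± 0.05 with IMQ and 0.25 ± 0.05 on adding PA (adjusted p = 0.000709). Adk, the kinase that turns adenosine into AMP, fell by 1.41 ± 0.09 with IMQ (adjusted p = 3.99e-09), and 0.26 ± 0.09 on adding PA was not called (adjusted p = 0.0652).

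Nucleoside transporters and ATP release channels moved in both directions. Slc28a2, a concentrative nucleoside transporter, averaged 5.55 in IMQ with PA, 7.20 in IMQ, 5.11 in PA and 5.06 in mock arrays, a rise of 2.13 ± 0.17 with IMQ (adjusted p = 3.88e-08, limma) and a fall of 1.65 ± 0.17 on adding PA (adjusted p = 2.62e-06). Slc29a3, an equilibrative transporter of lysosomes, moved the other way, at -1.36 ± 0.05 with IMQ and 0.68 ± 0.05 on adding PA. Gja1 (connexin 43), whose hemichannels pass ATP, averaged 10.31 in IMQ with PA, 8.48 in IMQ, 5.01 in PA and 5.18 in mock arrays, with an interaction of 2.00 ± 0.37 (adjusted p = 0.00151). With 2 PA arrays and 1 mock array dim, the PA change without IMQ in that interaction (-0.17, 95% interval -0.73 to 0.39) was read near the dim level. Panx1, a pannexin channel for ATP, gave -0.38 ± 0.08 with IMQ and 1.01 ± 0.08 on adding PA (adjusted p = 1.92e-07). It averaged 7.80 in IMQ with PA, 6.79 in IMQ, 7.36 in PA and 7.17 in mock arrays.

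**Figure D4:**
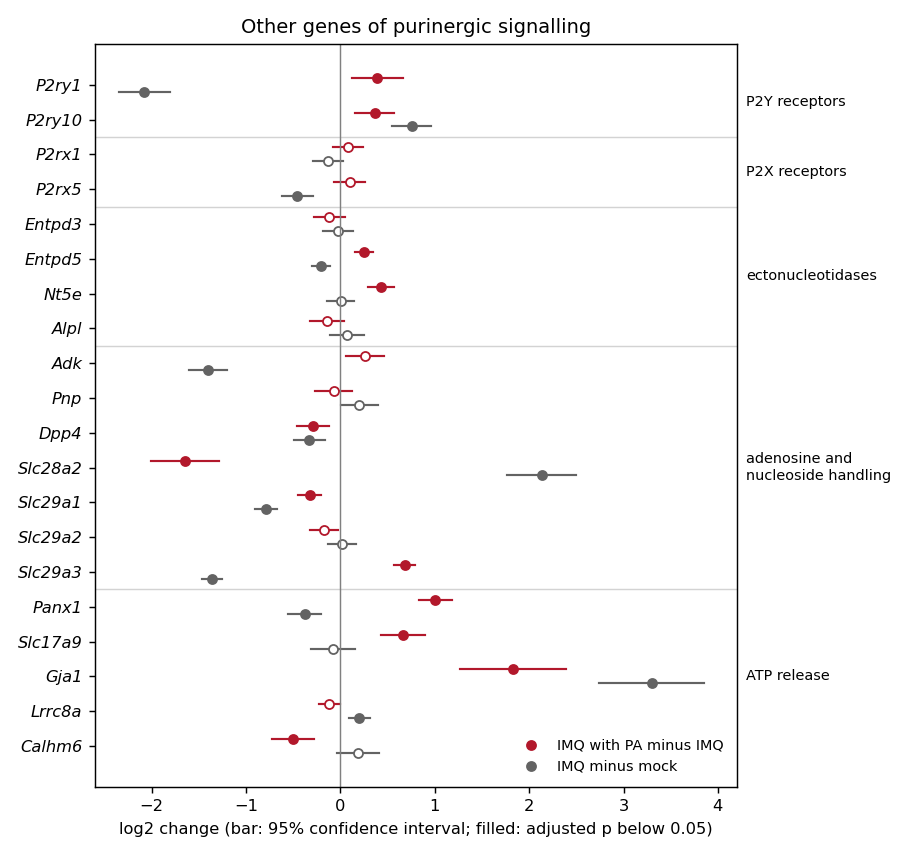
Log2 changes of other purinergic genes that were not dim in every group, for IMQ with PA against IMQ and for IMQ against mock, with 95% intervals of the limma fit and filled points for called changes. Gja1 lies to the right in both comparisons, and Slc28a2 and Slc29a3 take opposite signs in them.

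The genes nearest to the 4 members with the largest range were found over the 16 arrays among 12592 genes. Each gene was centred on its own mean and not scaled, so nearness covers both shape and size of change. For P2ry13 they were Sirpb1a (root mean square difference 0.147), which belongs to a family of close copies, and Clec12a (0.199), a C-type lectin receptor. For Entpd1 they were Nrp1 (0.121), a co-receptor for semaphorins, and Hgf (0.131), hepatocyte growth factor. P2ry6 lay nearest to Sash3 (0.0915) and to the interleukin-6 receptor gene Il6ra (0.0942), and P2rx7 to the lysosomal mannosidase gene Manba (0.0623) and the lipoprotein lipase gene Lpl (0.0693). The Lpl probe set used averaged 10.78 in IMQ with PA, 10.99 in IMQ, 12.28 in PA and 12.20 in mock arrays. A second Lpl probe set read 7.18, 7.44, 9.03 and 9.26 in the same order, and its distance to P2rx7 was not computed.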

How the data were processed

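The values used were deposited by the authors as log2 expression, made with RMA and affy (versions not stated) per the submitters' processing notes. RMA corrects background, normalises arrays by quantiles and summarises each probe set. There were 41345 probe sets on 16 arrays, whose genome build was not given in the sources used here. Symbols came from the platform annotation, 23521 probe sets had a single symbol, and for genes with several the probe set with the highest mean was kept, which left 22180 genes. RefSeq (GRCm38.p6) gave names, gene order and promoters only.

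The means of the 4 groups were fitted gene by gene with limma 3.58.1 in R 4.3.3, with eBayes (12 residual and 2.96 prior degrees of freedom) and two-sided tests, adjusted over all genes by Benjamini-Hochberg and called under 0.05. The interaction subtracts the PA change without IMQ from that with IMQ. The steps were tested on simulated data. All members are named. Of each other list, the 2 called genes with the largest rise and the 2 with the largest fall were eligible in each comparison. Members and lists were chosen with earlier results of these data known. Same-numbered arrays were not paired, since correlations of their deviations ran from -0.27 to 0.27, with 5 of 24 over 0.1. For replicate 3 all were positive, from 0.05 (IMQ with PA and PA) to 0.27 (IMQ and mock). A fit with the replicate number as a block is therefore given among the alternatives. Precision is limited by the number of arrays. Alternatives were repeated quantile normalization, equal array medians, trended and robust moderation, a filter on dim genes, other fits and covariates, and leaving out arrays.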

Additional observations from a re-analysis of the deposited data

Results flagged for a closer look

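Among the 32 gene and group combinations tested for a stray array, 1 passed Dixon's 95% critical value. It was P2rx7 in PA arrays, where replicate 3 at 9.16 stood above the other 3, at 9.08 to 9.09, with a gap of 0.943 of the range. Chance gives such a value in about 1 of 20 groups.

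For 6 of the 8 genes the PA change differed with and without IMQ by the interaction test of the limma fit. Of all genes, dim ones included, 7.01% were called below 0 and 6.58% above 0 in that test. On the log2 scale the difference was -2.02 for P2ry13, -1.05 for P2ry2, -0.87 for P2ry6, -0.59 for P2ry14, -0.19 for P2rx4 and 1.33 for Entpd1. The P2rx4 value was not called under several other settings.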

How the results depend on the processing

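The 48 results on single genes were recomputed under 26 alternatives, 16 of which left out 1 array. Of 1240 values, 1208 kept their direction and their side of the threshold, 10 were no longer called, 2 became called and 20 uncalled values changed sign near 0; a called value changed sign in 0. With the replicate number as a block, 0 of the genes were called for PA against mock, 8 for IMQ against mock and 6 for the interaction. For IMQ with PA, 6 were called against IMQ, 8 against PA and 7 against mock, and no call changed. Of all 22180 genes, that fit called 259 for PA against mock, 7721 for IMQ against mock and 2942 for the interaction. For IMQ with PA it called 4655 against IMQ, 7885 against PA and 8127 against mock. Of 48 comparisons of an array with another group, 19 had the same-numbered array as the best match of 4. That is more than the 1 in 4 that unrelated numbers would give on average.

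The number of all genes called for PA against mock was 331. It was 737 with trended and robust moderation, where P2ry2 was called and made 1 of the 8 (adjusted p = 0.0417, limma), 530 without dim genes, 150 with only the groups compared, 15 without the 5 arrays of IMQ-like signal, and 170 to 346 with 1 array left out. The interaction count was 3015 and fell to 1200 without those 5 arrays, against 2600 to 2897 with 1 array left out. Leaving out 5 arrays left 1 mock and 2 PA arrays, whose spread is assumed to be that of the other groups. The cause of the other differences was not tested. Values near the dim level limit P2ry13 and P2ry12.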

Other observations

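Further lists were read for the cyclic AMP response, G protein and cyclase subunits and the inflammasome, chosen with results of these data known. Whether the receptors described here had a part in the changes of these genes was not tested. Cyclic AMP itself was not measured, and whether it changed the genes of its list was not tested. Of 10 measured genes of the cyclic AMP response, 8 were higher and 1 lower with IMQ alone (17.0% and 17.9% of all genes), and 9 were higher and 0 lower on adding PA to IMQ (11.6% and 9.44% of all genes). Nr4a1, an orphan nuclear receptor gene, gave 1.34 ± 0.11 with IMQ alone and 2.58 ± 0.11 on adding PA (adjusted p = 1.03e-10, limma), and Nr4a2, its relative, gave 1.58 ± 0.09 with IMQ alone and 2.16 ± 0.09 on adding PA. Sik1, a kinase induced by cyclic AMP, gave -0.34 ± 0.06 with IMQ alone and 1.37 ± 0.06 on adding PA. Of 11 measured G protein and cyclase subunits and phospholipases, 2 were higher and 6 lower with IMQ alone, and 0 higher and 6 lower on adding PA, beside the same shares of all genes. Gna15, a Gq-family subunit, gave -2.15 ± 0.07 with IMQ (adjusted p = 6.95e-13) and Plcb2, a phospholipase, gave -1.81 ± 0.04 (adjusted p = 5.07e-14).

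Of 8 inflammasome genes, 4 were higher and 2 lower with IMQ alone, beside 17.0% and 17.9% of all genes. On adding PA 2 were higher and 4 lower, beside 11.6% and 9.44%. Nlrp3, the sensor that ATP acting on P2rx7 can trigger, gave 1.80 ± 0.05 with IMQ and a further 0.64 ± 0.05 on adding PA (adjusted p = 1.02e-07, limma), while P2rx7 gave -1.28 with IMQ and -0.10 on adding PA. Il1b averaged 13.1 in IMQ with PA and 13.1 in IMQ arrays, close to the highest value in the table, 13.53, so a PA change there could not be read. It read 9.67 to 11.2 in PA and 9.40 to 11.3 in mock arrays. Pycard, the adaptor ASC, gave -0.98 ± 0.06 with IMQ and -0.49 ± 0.06 on adding PA. Among 7 measured relatives of P2ry12, S1pr1, a sphingosine-1-phosphate receptor, gave 1.04 ± 0.08 on adding PA and Cysltr1, a leukotriene receptor, gave -1.10 ± 0.08.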
